A study of Mus musculus with 12 samples.

Results

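This report describes how the pancreas of wild type mice responded to caerulein. The comparison set the 3 arrays titled wild type caerulein against the 3 titled wild type saline, 6 of the 12 arrays of the series, over every probe set that is not a control. Wild type mice were C57BL6 males aged 2 to 4 months that received saline or caerulein every hour for 4 hours and were killed at the 4 hour point. The other 6 arrays came from Mist1KO males of the same age range, which lack the acinar transcription factor Mist1 (gene Bhlha15), 3 after saline and 3 after caerulein. They enter here only through the shared estimate of spread and the test of whether a response differed between genotypes. Each array carried the RNA of a whole pancreas, about 10 µg of total RNA was labelled, and the series calls the samples biological replicates. The labels give no dose of caerulein, route of injection or day of the experiment. The series asked how caerulein acts on the Mist1KO pancreas, and the wild type pair is its reference response.

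Caerulein is a peptide analogue of the gut hormone cholecystokinin. It binds the receptor encoded by Cckar on acinar cells, the cells that make and secrete digestive enzymes, and through Gq proteins it releases calcium from the endoplasmic reticulum (ER), which drives granule exocytosis. In repeated doses above the physiological range it is a standard way to cause acute pancreatitis in rodents. Acinar cells carry a very high load of secretory protein, so the unfolded protein response and the integrated stress response, in which phosphorylated eIF2alpha slows translation while the transcription factor ATF4 is made, are well known in this tissue.

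The values were linear signal units. Throughout, a change is the log2 difference of caerulein minus saline on the log2(value + 18.7) scale, given as ± SE with n = 3 pancreata per group. A fold is 2 to the power of that difference, which understates the change of dim genes. "Rose", "fell" and "passed" mean an adjusted p under 0.05 from limma's moderated test, adjusted by Benjamini-Hochberg over all 15716 probe sets tested. A gene with several probe sets is represented by the brightest. The signal of acinar tissue was present: Ctrb1, a chymotrypsinogen, lay at 21023 to 27998.9 signal units after saline. The array medians were 85.2 to 90.15 after saline and 76.3 to 82 after caerulein, while the trimmed means of all 6 lay between 151.08 and 151.28. The first principal component of the 6 arrays held 51.8% of the variance and parted the injections, with saline arrays at -40.4 to -37.6 and caerulein arrays at 31.5 to 44.4. The second held 14.3% and set saline replicate 2 apart, at -38.5. The third held 12.2% and set caerulein replicate 1 apart, at 36.3. The Actb ratio of 3' to 5' control probe sets was 1.46 to 1.66 after saline and 1.28 to 1.40 after caerulein, and its part in the results was not tested. With arrays as the unit, their number limits the precision.

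Caerulein changed 2975 of 15716 probe sets, 18.9% of those tested. Of these, 1444 were higher (9.19%) and 1531 were lower (9.74%). By gene, 829 rose and 944 fell among 9481 tested. The rises were larger than the falls. At least a 2-fold difference was reached by 417 risen and 240 fallen genes, a 4-fold difference by 97 and 20, and an 8-fold difference by 32 and 2. The 6 genes past 16-fold had all risen. The median change of the probe sets that rose was 1.03 and that of those that fell was -0.77. The probe sets that fell had a brighter saline signal, with a median of 242 against 162 for those that rose and 138 for all tested. The saline arrays also entered the calls and the filter on dim probe sets, so this describes the selected probe sets only. The median change of all probe sets tested was -0.14, so small falls of a whole list are to be read against that shift. Counts of called list members are likewise to be read against the shares over all probe sets. These were 18.9% either way, 9.19% higher and 9.74% lower. Rises made up 48.5% of the calls, and 67.8% with arrays centred on their medians. In whole tissue, fewer cells of a type and less RNA per cell cannot be told apart.

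**Figure D1:**
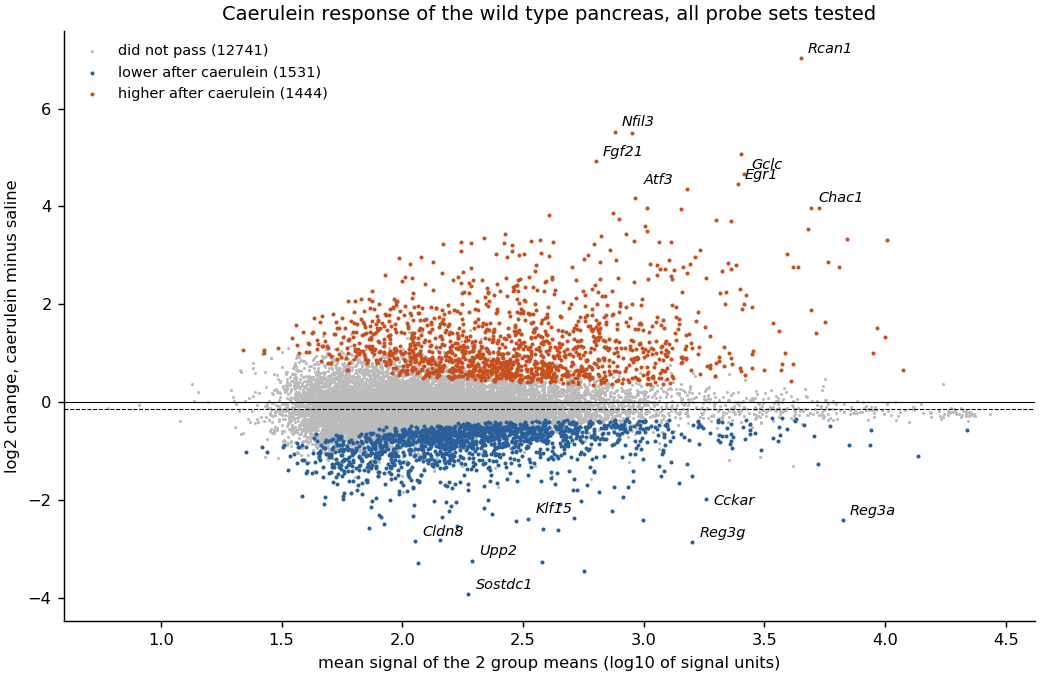
Each point is a probe set tested, placed by the mean of its 2 group means (log10 of signal units) and its log2 change in wild type. Orange points were higher after caerulein (1444), blue points lower (1531) and grey points did not pass (12741). The dashed line marks the median change of -0.14, and the points reach 7.03 at Rcan1 and -3.93 at Sostdc1.

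The largest rise was that of Rcan1, which encodes an inhibitor of the calcium-dependent phosphatase calcineurin and is itself a classical calcineurin and NFAT target. Its signal was 21.9, 203.9 and 14.9 on the saline arrays and 7527, 8839.9 and 10164.8 on the caerulein arrays. The lowest caerulein array was far above the highest saline array, and saline replicate 2 stood above the other saline arrays. The change was 7.03 ± 0.63 (adjusted p = 4.96e-06), and 7.90 without saline replicate 2. A second probe set of the gene gave 5.07 ± 0.39, and the mean of both was 6.05. Other members of the calcineurin and NFAT list moved far less. Of 13 tested, 3 rose and 2 fell: Rcan3, a paralogue of Rcan1, rose by 1.10 ± 0.17 and Fkbp1a, the FK506 binding protein, by 0.91 ± 0.16, while the falls of the catalytic subunit Ppp3cb (-0.57 ± 0.15) and of Nfatc3 (-0.96 ± 0.29) were both lost when the arrays were centred on their medians (adjusted p = 0.0675 and 0.0678).

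Nfil3, a basic leucine zipper repressor that competes with the clock-controlled PAR factors, came next. Its signal was 12.3, 9.8 and 19.5 after saline and 1219, 1949.4 and 1335.7 after caerulein. The saline arrays were all under 20 and the caerulein arrays all at 1219 or above, a change of 5.53 ± 0.42 (adjusted p = 1.27e-06). Fgf21, a stress hormone that the exocrine pancreas both makes and answers to, read 12.6, 21.8 and 18.7 after saline and 485.6, 1935.2 and 1317.9 after caerulein. Here the caerulein arrays spread widely, with replicate 1 the lowest, and the change was 4.92 ± 0.38 (adjusted p = 1.27e-06). For such dim baselines the size depends on the offset: with an offset of 1 the changes of Rcan1, Nfil3 and Fgf21 were 7.70, 6.68 and 5.88, and with an offset of 64 they were 6.18, 4.30 and 3.82.

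Gclc, the catalytic subunit of the rate-limiting enzyme of glutathione synthesis, read 168.2, 172.9 and 194.6 after saline and 4139.2, 4787.5 and 6103.3 after caerulein. Both groups were tight, and the change of 4.66 ± 0.25 had an adjusted p of 1.3e-07. The transcription factor Egr1, an early target of ERK signalling, went from 223.5, 224 and 129.2 to 3069.9, 6655.1 and 4397.4, a change of 4.45 ± 0.45 (adjusted p = 1.3e-05). Atf3, a stress-induced member of the ATF family, went from 144.1, 173.8 and 69.2 to 2324.6, 3618.3 and 2747.8, a change of 4.35 ± 0.46 (adjusted p = 1.92e-05). In neither gene did the groups come near each other. Chac1, an ATF4 target that degrades glutathione, rose from 444.2, 712.2 and 542.4 to 6534.9, 9731.2 and 11550.7, a change of 3.98 ± 0.33 (adjusted p = 2.28e-06). The other genes among the 15 largest rises, each with its 3 caerulein arrays above its 3 saline arrays, were the endopeptidase Kel (3.97 ± 0.35), the EGF receptor ligand Hbegf (3.95 ± 0.53), the MAP kinase phosphatase Dusp1 (3.85 ± 0.57), the TWEAK receptor Tnfrsf12a (3.73 ± 0.34), the p53-induced Trp53inp1 (3.70 ± 0.39), the transcription factors Cebpb (3.60 ± 0.23) and Klf6 (3.49 ± 0.47) and the leucine sensor Sesn2 (3.44 ± 0.37). In the mean of all probe sets of a gene the change was 3.09 for Hbegf, 3.05 for Trp53inp1 and 4.62 for Tnfrsf12a. Sesn2 changed by 4.11 and 2.58 with offsets of 1 and 64.

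**Figure D2:**
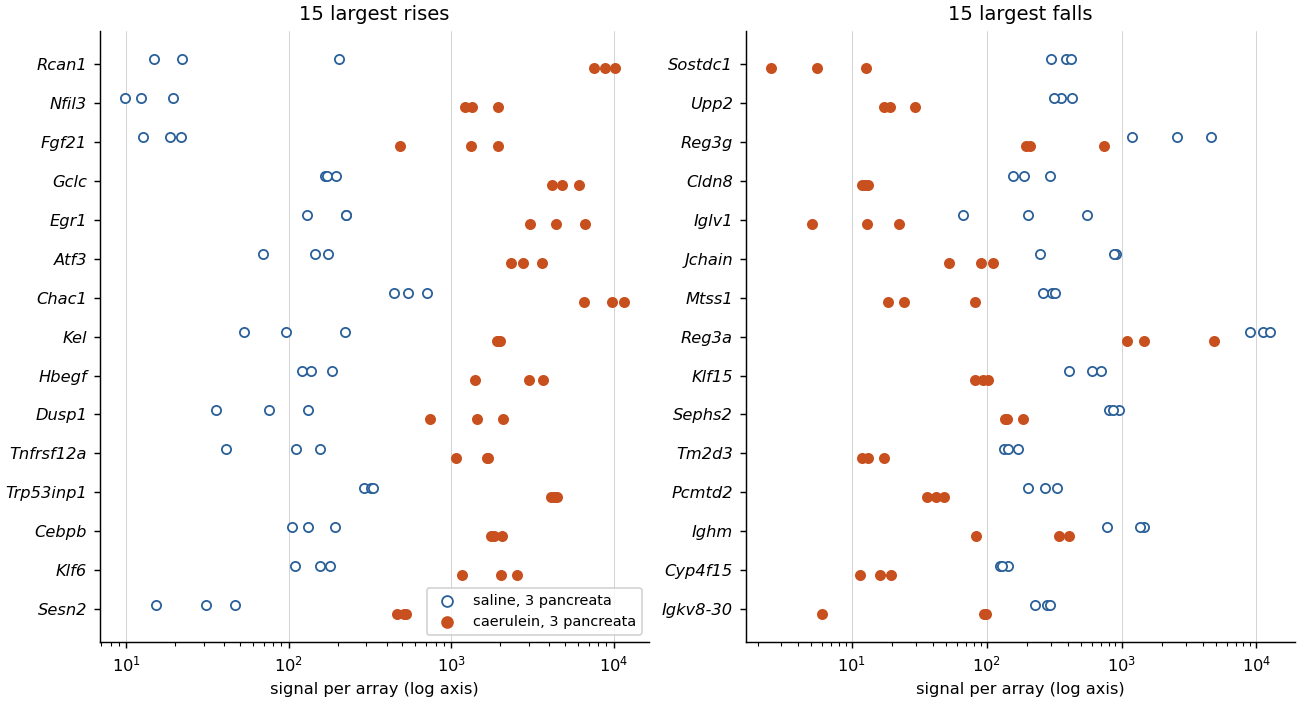
Signal of every wild type array (log axis) for the 15 genes with the largest rises, left, and the 15 with the largest falls, right; open circles are the 3 saline pancreata and filled circles the 3 caerulein pancreata. In each of the 30 genes the groups do not overlap, which the choice of these genes required. Rcan1 has 1 saline array (203.9) apart from the other saline arrays.

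Promoter sequences of 4 of these genes are shown because they hold letters bound by factors of the calcium and stress pathways, with the matches in capitals. They come from RefSeq (GRCm38.p6) and cover the 250 bases before a start, read in the direction of the gene. For Rcan1 the start shown is the inner of its 2 in the table (chr16:92400079-92400328, minus strand). Its matches are GGAAAA, the core that NFAT binds, on both strands, TGACGT, the core of cyclic AMP response elements, on both strands in overlap, and TGANTCA, the AP-1 site. Fgf21 (chr7:45615491-45615740, minus strand), Atf3 (chr1:191183334-191183583, minus strand) and Chac1 (chr2:119350992-119351241, plus strand) each hold TGATGNAA, the core of the amino acid response element that ATF4 and C/EBP factors bind, read on the opposite strand as TTGCATCA. Fgf21 also holds CACGTG, an E-box, and Atf3 also holds TGACGT. The outer start of Rcan1 had an E-box and GAANNTTC, a heat shock element pair, but none of the letters given for the inner one. Among other large rises, Kel held TGANTCA, Dusp1 held TGACGT and an E-box, and Klf6 held an E-box. Nfil3, Tnfrsf12a, Cebpb and Sesn2 held none of the letters searched. For Gclc, Egr1, Hbegf and Trp53inp1, also among the largest rises, no promoter was examined singly.
Rcan1: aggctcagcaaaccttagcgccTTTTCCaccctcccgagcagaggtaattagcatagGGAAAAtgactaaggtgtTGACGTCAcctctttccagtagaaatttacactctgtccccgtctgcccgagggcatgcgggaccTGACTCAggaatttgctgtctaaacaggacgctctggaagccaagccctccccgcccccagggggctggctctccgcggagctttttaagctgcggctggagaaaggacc
Fgf21: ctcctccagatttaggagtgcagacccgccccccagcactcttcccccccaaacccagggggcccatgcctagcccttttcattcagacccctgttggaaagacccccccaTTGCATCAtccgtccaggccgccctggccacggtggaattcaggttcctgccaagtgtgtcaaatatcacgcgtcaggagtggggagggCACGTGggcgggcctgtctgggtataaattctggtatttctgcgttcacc
Atf3: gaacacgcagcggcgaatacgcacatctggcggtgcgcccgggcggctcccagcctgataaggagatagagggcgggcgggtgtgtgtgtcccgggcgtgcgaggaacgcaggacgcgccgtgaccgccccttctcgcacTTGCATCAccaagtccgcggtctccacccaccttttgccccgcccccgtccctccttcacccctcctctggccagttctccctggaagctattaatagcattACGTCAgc
Chac1: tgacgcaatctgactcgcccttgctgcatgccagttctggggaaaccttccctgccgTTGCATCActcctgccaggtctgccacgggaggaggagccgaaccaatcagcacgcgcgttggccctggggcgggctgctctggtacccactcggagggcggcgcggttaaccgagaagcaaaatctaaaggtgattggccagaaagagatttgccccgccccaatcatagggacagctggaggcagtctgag

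Over all genes, these letters were counted on both strands of windows of 300 bases, from 250 before to 50 after a start. Only genes with a promoter sequence could be counted. These were 332 of the 417 genes raised at least 2-fold and 24 of the 32 raised at least 8-fold. They were 192 of the 240 lowered at least 2-fold and 7639 of the 9481 tested. TGATGNAA lay in at least 1 promoter of 23 of 332 genes raised at least 2-fold (6.93%), of 4 of 24 raised at least 8-fold (16.7%) and of 8 of 192 lowered at least 2-fold (4.17%). Among the genes tested it lay in 225 of 7639 (2.95%), and among all 27025 genes with a promoter, tested or not, in 4.51%. Counted by promoter instead of by gene, it lay in 3.97% of all 32851 promoters. TGACGT was in 16% of the genes raised at least 2-fold, in 8.85% of those lowered at least 2-fold and in 12.7% of those tested (8.37% of all genes with a promoter). TGANTCA was in 9.94%, 7.29% and 7.08% of the same sets (8.97% of all genes with a promoter). The NFAT core GGAAAA, which is short and frequent, was in 20.2%, 25.5% and 24.1% (26.1% of all genes with a promoter). The E-box CACGTG was in 14.5%, 12.5% and 11.5% (8.09% of all genes with a promoter). Among the 24 genes raised at least 8-fold, TGACGT and TGANTCA each lay in 4 as well (16.7%). GGAAAA lay in 5 of these 24 genes (20.8%) and the E-box in 6 (25%). These shares are descriptions of sequence, with no test, and a match is not a bound site.

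The early response of the pancreas was broad. Of 27 AP-1, Egr and other early transcription factors tested, 20 rose, none fell and 7 did not pass, with a median change of 1.46 against -0.14 for all probe sets. These are genes whose transcription starts within minutes of growth factor or calcium signals. Besides Egr1 and Atf3, Ier2 rose by 3.27 ± 0.32, from 182.3, 183.3 and 226.2 to 1723, 2849.4 and 1772.6. Bhlhe40, a clock and stress repressor, rose by 3.02 ± 0.55 from 121.3, 20.4 and 13.9 to 479.1, 416.3 and 422.3, and by 3.68 without saline replicate 1, its high saline array. With offsets of 1 and 64 it changed by 3.70 and 2.23. Ier3 (3.01 ± 0.28) and Ier5 (2.93 ± 0.33), of the same early class, also rose, but the other probe set of Ier5 did not pass and the mean of both was 1.63. The 20 risers spanned 0.93 to 4.45, and the 7 others lay between -1.01 and 0.44.

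Among 13 Krueppel-like factors, 5 rose and 1 fell. Klf6 went from 154.9, 180.3 and 109.4 to 1171.8, 2524.3 and 2034.3. Klf10 (1.82 ± 0.36), Klf4 (1.77 ± 0.28) and Klf7 (1.41 ± 0.20) also rose, and so did Klf5 (1.21 ± 0.33), whose call was lost without saline replicate 3 or caerulein replicate 2 or 3. Klf15, a glucocorticoid-induced regulator of amino acid and lipid use, went the other way, from 604.7, 706.3 and 409.3 to 93.5, 101.6 and 81.6, a fall of 5.23-fold (-2.39 ± 0.39, adjusted p = 0.000766).

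Feedback inhibitors of MAP kinase and EGF receptor signalling showed 5 rises and no fall among 15 tested. Dusp1, the nuclear phosphatase that switches MAP kinases off, rose from 75.1, 131.1 and 35.5 to 735.9, 2070.1 and 1443.3. Errfi1, an inhibitor of the EGF receptor, rose by 2.18 ± 0.40 and Dusp16 by 1.38 ± 0.21. The calls of Dusp8 (0.98 ± 0.28) and Spred1 (0.85 ± 0.23) were each lost without 1 of 4 arrays, saline replicates 1 and 3 and caerulein replicate 1 among them. Among 12 EGF family genes, the ligand Hbegf rose from 183.5, 120.8 and 136.4 to 1405.3, 3673.6 and 3022.1. Btc, another ligand (1.09 ± 0.18), and the sheddases Adam10 (1.14 ± 0.24) and Adam9 (0.54 ± 0.13) rose as well, while the other 8 lay between -0.39 and 0.23.

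Genes of the integrated stress response rose in all of its lists. Over 5 lists and 83 different genes tested, 52 rose, 3 fell and 28 did not pass. Of 14 ATF4 and C/EBP factors, 11 rose and none fell (median 1.5). Atf4 itself read 782, 731.3 and 730 after saline and 3270.8, 4122.6 and 3479.4 after caerulein, a change of 2.24 ± 0.15 (adjusted p = 3.87e-07). Cebpb went from 191.3, 131.6 and 104.3 to 1755.7, 1843.4 and 2059.9, with all 3 caerulein arrays close together. The pseudokinases Trib1 (3.25 ± 0.50) and Trib3 (3.22 ± 0.34), of which Trib3 damps ATF4, and Cebpd (2.98 ± 0.24) rose as well. The other probe sets of Trib1 and Cebpd did not pass, and the means of all probe sets were 1.69 for Trib1, 1.98 for Cebpd and 1.40 for Atf4. With offsets of 1 and 64 Trib1 changed by 4.10 and 2.29. Ddit3, which encodes the factor CHOP, rose by only 0.92 ± 0.28 (94.2, 81.8 and 125.4 against 182.1, 293.7 and 156.5), and its call was lost without saline replicate 1 or 2, without caerulein replicate 1 or 2, and with no filter on dim probe sets.

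Of 17 effectors of that response, 13 rose and 1 fell (median 1.46). Ppp1r15a, the phosphatase subunit that reverses eIF2alpha phosphorylation, rose by 1.92 ± 0.27, from 176.6, 230.6 and 162.2 to 562.3, 1068.7 and 733.3. Ddit4, an inhibitor of the mTORC1 kinase, rose by 2.96 ± 0.49, and by 2.27 without saline replicate 3, its low saline array at 122.2 beside 548.8 and 581.2. Sesn2 went from 15.2, 30.8 and 46.9 to 462.1, 512.3 and 528. Eif2ak3, the ER-resident eIF2alpha kinase PERK, had 1015.4, 712.3 and 715.8 against 923, 1824.5 and 1422.1, groups that overlapped, and its call (0.72 ± 0.21) was lost under several alternatives, quantile normalization among them. The fallen member was Gadd45g (-2.18 ± 0.69, adjusted p = 0.0403), whose saline arrays read 616.5, 466.6 and 64.3 and overlapped the caerulein arrays at 51.7, 16.3 and 93.7. Without saline replicate 3 its change was -3.09, and the call was lost under several alternatives, such as leaving out saline replicate 1 or 2.

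Of 17 enzymes of serine, glycine, asparagine and cysteine synthesis, 9 rose and none fell (median 0.78). Cth, which makes cysteine, rose by 2.16 ± 0.15 (241.1, 250 and 205.8 against 899.7, 1321.2 and 1115). Shmt2 (1.79 ± 0.15, but 0.98 in the mean of its probe sets), Psat1 (1.63 ± 0.23) and Psph (1.60 ± 0.24), enzymes of serine and glycine metabolism, rose by about as much, and Asns, the asparagine synthetase, rose by 0.78 ± 0.12 from 3546.4, 2888.2 and 2770.7 to 4954, 5377.9 and 5477.3. Of 18 amino acid transporters, 9 rose and 2 fell (median 0.44). Among them were Slc7a11, the cystine importer (2.23 ± 0.30), Slc7a3, a cationic amino acid carrier (2.31 ± 0.16), and Slc3a2, the shared heavy chain (1.46 ± 0.12), which read 1759.2 to 2053.2 after saline and 4733.5 to 5755.1 after caerulein. Slc7a8, a neutral amino acid exchanger that pairs with that same heavy chain, fell 4.07-fold, from 983.1, 846.6 and 840.9 to 238.1, 247.8 and 143 (-2.02 ± 0.22, adjusted p = 2.39e-05).

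Of 18 cytosolic aminoacyl-tRNA synthetases, which charge tRNAs with their amino acids, 11 rose and none fell (median 0.73). The rises ran from 0.61 to 1.60. Tars (threonine) rose by 1.60 ± 0.17 and Rars (arginine) by 1.53 ± 0.13. Nars (asparagine) went from 1106.5, 1048.6 and 999.3 to 2631.3, 2993 and 2494, a change of 1.35 ± 0.10. The 7 members that did not pass lay between -0.39 and 0.65.

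**Figure D3:**
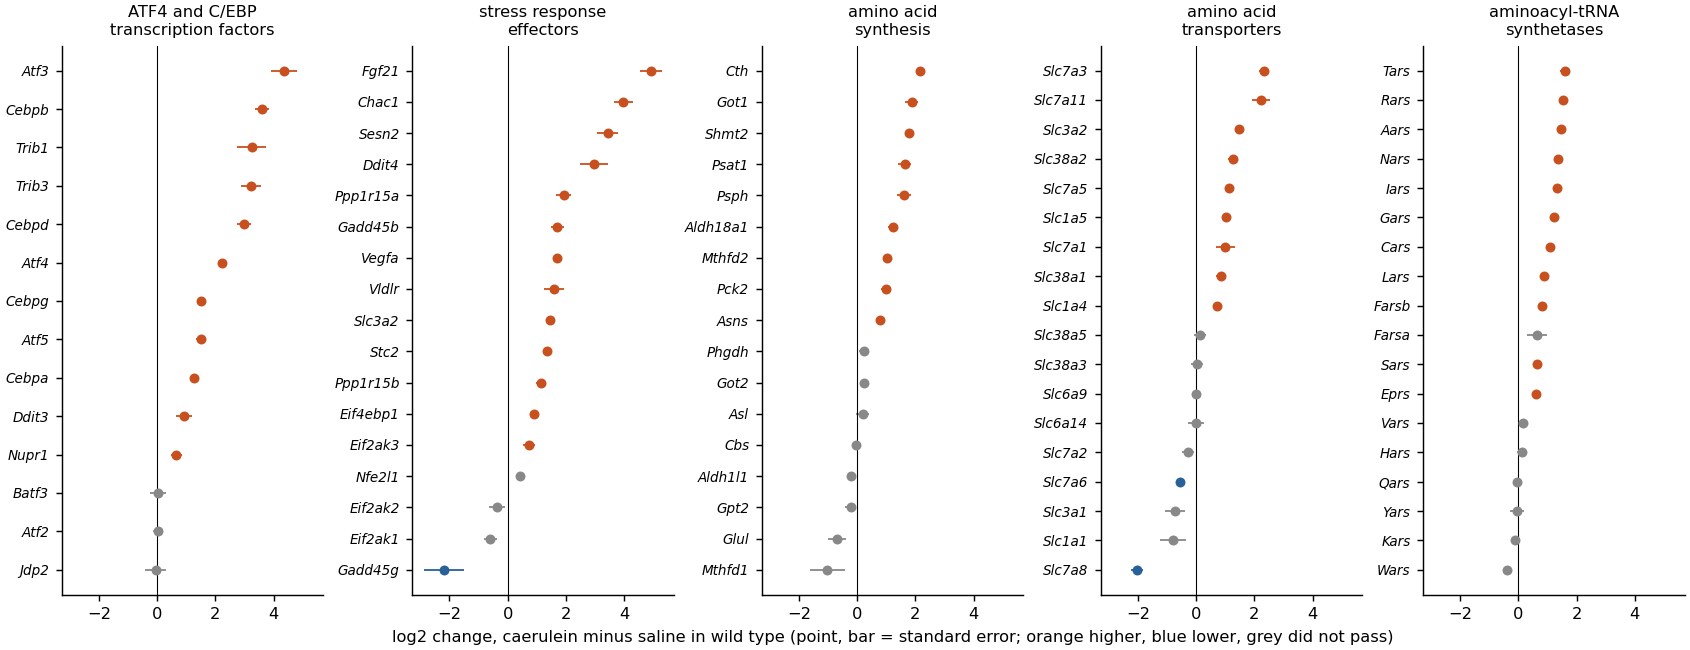
Log2 change in wild type (point) with its standard error (bar) for every tested member of 5 stress response lists; orange members rose, blue members fell and grey members did not pass. Among the effectors the fallen member is Gadd45g at -2.18.

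Genes of ER protein folding went both ways. Hspa5, the ER chaperone BiP, rose by 1.63 ± 0.11 (adjusted p = 5.18e-07), from 2776.4, 2869.7 and 2572.2 to 7622, 9618.7 and 8419. Ero1a, an oxidase that feeds disulfide formation, rose by 1.97 ± 0.14 (1.01 in the mean of its probe sets) and Dnajb2, a co-chaperone, by 1.48 ± 0.26. Of the 29 chaperones and disulfide isomerases tested, these 3 rose while 9 fell and 17 did not pass (median -0.28). The largest fall was that of the isomerase Pdia3 (-1.50 ± 0.17), from 444.1, 458.7 and 583.3 to 216.4, 120.1 and 162.8, followed by the co-chaperones Dnajb11 (-0.85 ± 0.19) and Dnajc10 (-0.75 ± 0.14). With arrays centred on their medians, 6 members fell.

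The ER sensors did not move as a group. Of 12 tested, 1 rose and 2 fell. Creb3l1, an ER-bound transcription factor of secretory cells, fell by 1.72 ± 0.20 on the log2 scale, from 344.6, 364.2 and 318.1 to 129.6, 96.7 and 57.5. Xbp1, the target of the sensor IRE1, read 7833.9, 7160.4 and 7875.8 after saline and 8303.7, 7317.7 and 7429.1 after caerulein. The groups overlapped, and the change of 0.01 had a 95% interval of -0.26 to 0.28. The probe set measures total Xbp1 signal and not its splicing. In ER-associated degradation 2 of 19 rose, Herpud1 (1.41 ± 0.21) and the ubiquitin-conjugating enzyme Ube2g2 (1.21 ± 0.18), and 4 fell, led by the adaptor Sel1l (-0.82 ± 0.17), which read 2519.4 to 2799.6 after saline and 1387 to 1676.1 after caerulein.

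Components of the translocon and of vesicle coats, which carry secretory proteins into and out of the ER, fell where they moved: 12 of 41 fell and none rose (median -0.31). Sec62, a translocon subunit, fell by 1.32 ± 0.12 on the log2 scale, from 1872.6, 1546.1 and 1581.1 to 680, 634.9 and 652.6. The cargo receptor Tmed10 fell by 1.16 ± 0.15 and the translocon-associated Ssr1 by 0.80 ± 0.17. Sec61a1, the channel itself, did not pass (0.21, 95% interval 0.02 to 0.41). The size of this group depends on the scaling, since 4 fell and 2 rose when the arrays were centred on their medians.

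The signals of the digestive enzymes moved little after 4 hours. Of 10 trypsinogens, chymotrypsins and elastases, 1 fell and none rose, and of 11 amylases, lipases, carboxypeptidases and nucleases none passed. The 9 proteases that did not pass were all slightly lower, at -0.36 to -0.04, and the 11 other enzymes lay between -0.38 and 0.21. The medians were -0.25 and -0.22, against -0.14 for all probe sets. How linear the signal is at such brightness was not tested. Near-identical family members can share probes, so the single names are uncertain. Ctrb1 read 24587.6, 27998.9 and 21023 after saline and 17976.5, 19518.3 and 25093 after caerulein, overlapping groups with a change of -0.24 (95% interval -0.62 to 0.15). Ctrc, a chymotrypsin that degrades trypsin, was the exception and fell from 6685.3, 6774.7 and 5249.2 to 3215, 4123.4 and 4275.9 (-0.69 ± 0.15, adjusted p = 0.00631). As a share of the summed signal of an array, the proteases took 3.20% to 3.78% after saline and 2.70% to 3.36% after caerulein, and the other enzymes 3.29% to 3.96% and 2.77% to 3.50%.

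The Reg lectins, secreted proteins named for regeneration and often raised in inflamed pancreas, were lower here: 5 of 7 fell and none rose. Reg3g read 2564.4, 1184.8 and 4637.6 after saline and 735.1, 209.2 and 196 after caerulein. Its groups were wide but did not overlap, and the change was -2.87 ± 0.56 (adjusted p = 0.00252), or -3.46 without caerulein replicate 1. Reg3a went from 11097.6, 8956.9 and 12516 to 4860.5, 1470.3 and 1105.2 (-2.42 ± 0.41), or -3.06 without caerulein replicate 1. Reg3b (-1.10 ± 0.25) and Reg3d (-0.87 ± 0.14) fell less, and the call of Reg3b was lost under quantile normalization (adjusted p = 0.0541). Reg2 (-0.57 ± 0.17) lost its call under several alternatives, centred arrays among them (adjusted p = 0.0851), and Reg1 (-0.21 ± 0.17) did not pass.

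Among 15 transcription factors of acinar identity, 5 fell and 1 rose. Nr5a2, an orphan nuclear receptor needed for acinar differentiation, fell 2.65-fold (-1.40 ± 0.18), from 680.5, 799 and 685.4 to 294.6, 264.9 and 225.4. Foxa2 fell 2.52-fold (-1.33 ± 0.22), from 367.4, 432 and 382.5 to 171.6, 131.7 and 134.4. Bhlha15, the gene of Mist1, read 1601, 1619 and 1624.3 after saline and 776.8, 729.5 and 838.5 after caerulein, tight groups that differ by -1.03 ± 0.17 (adjusted p = 0.000934). Klf15 was described above, and Rbpjl (-0.64 ± 0.20), a partner of Ptf1a, lost its call under several alternatives, centred arrays among them. Foxa3 rose by 0.94 ± 0.13. Ptf1a, the factor that with Rbpjl drives the enzyme genes, read 1015.2, 1067.9 and 1342.1 against 1134.8, 1340 and 1643.2, which did not pass (0.26, 95% interval -0.09 to 0.60).

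The receptor for the stimulus fell. Cckar read 2633.3, 3085.1 and 3005.3 after saline and 613.4, 735.8 and 812 after caerulein, a 3.98-fold fall (-1.99 ± 0.16, adjusted p = 1.88e-06). Of 22 genes of secretagogue receptors and calcium signalling, 2 rose and 4 fell. Rgs2, a brake on Gq signalling, rose 10.5-fold, from 130.9, 122.6 and 57.9 to 978.8, 1387 and 1322.8 (3.39 ± 0.46, adjusted p = 0.000165). Gna14, a Gq family subunit, fell by 0.88 ± 0.18 on the log2 scale. Atp2a2, the ER calcium pump, rose by 0.69 ± 0.17, a call that was lost without caerulein replicate 2 or 3. Of 21 granule exocytosis genes, 3 rose, among them the apical syntaxin Stx3 (1.09 ± 0.15) and Stxbp3 (0.86 ± 0.17), and 1 fell, Vamp2 (-0.71 ± 0.18), whose call was lost without caerulein replicate 2 and in the mean of its probe sets. The called share of 19.0% was near the 18.9% of all probe sets tested. Rab3d, a granule GTPase, did not pass (0.13, 95% interval -0.12 to 0.38).

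Keratins rose. Krt8 and Krt18, the paired keratins of simple epithelia, went from 1084.5, 1434.2 and 1184.2 to 10156, 12645.8 and 15044.4 and from 1352.6, 1551 and 1257.6 to 8685.2, 10969.4 and 10840.1. Both pairs of groups lay far apart, with changes of 3.33 ± 0.24 (adjusted p = 7.44e-07) and 2.85 ± 0.14 (adjusted p = 6.33e-08). Krt19, a keratin of duct cells, rose by 1.89 ± 0.21 from a dim 56.9, 89.1 and 87.5 to 290.7, 341.2 and 373.1, and Krt80 rose by 0.96 ± 0.20. The remaining 2 of 6 keratins, Krt20 and Krt23, read 90.7 or less on all 6 arrays and did not pass.

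Of 29 actin and tubulin cytoskeleton genes, 18 rose and none fell (median 1.19). Actg1, cytoplasmic gamma actin, went from 1666.3, 1270.8 and 2008.1 to 8952.6, 11404.9 and 13414.1, a change of 2.76 ± 0.18. Tubb6, a beta tubulin, went from 14.9, 13.1 and 8.8 to 184.5, 282.9 and 382.2 (3.24 ± 0.30). With an offset of 1 that change is 4.39, with an offset of 64 it is 2.15. Zyx (2.44 ± 0.21) and Actn4 (1.95 ± 0.14), proteins of focal adhesions and actin bundles, also rose, though the mean of all Zyx probe sets was 1.30. Tubb4b rose by 2.20 ± 0.26 on its brightest probe set, but none of its 3 other probe sets passed, and the mean of all of them did not (adjusted p = 0.0890).

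Of 17 gap and adherens junction genes, 8 rose and none fell (median 0.52). Dsp, the desmosomal plaque protein, read 325.8, 362.4 and 337.2 after saline and 2148.4, 2357 and 2498.3 after caerulein. The spread within each group was small and the change was 2.71 ± 0.12 (adjusted p = 4.65e-08). Gjb2, connexin 26, rose 7.12-fold (2.83 ± 0.16) and Cdh1, E-cadherin, 6.26-fold (2.65 ± 0.20). Tight junction genes split, with 4 of 16 higher and 2 lower. Ocln (1.47 ± 0.24), Cldn7 (1.46 ± 0.17) and the scaffold Tjp1 (0.98 ± 0.14) rose. Cldn8 fell from 188.4, 156.5 and 296.8 to 12.6, 13.1 and 11.9 (-2.85 ± 0.25, adjusted p = 4.06e-06), all under the offset, and with offsets of 1 and 64 its change was -3.94 and -1.83. Cldn10 fell by 1.07 ± 0.13 on the log2 scale. Of 13 annexins and S100 proteins 4 rose, all annexins: Anxa3 (1.34 ± 0.21), Anxa5 (1.11 ± 0.21), Anxa7 (1.10 ± 0.12) and Anxa2 (0.90 ± 0.13). The mean of both Anxa2 probe sets did not pass (adjusted p = 0.303).

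Genes known from injured epithelia were led by Tnfrsf12a, which read 110.5, 154.9 and 41.1 after saline and 1074, 1666.6 and 1689.4 after caerulein. Of 27 tested, 7 rose and 1 fell. Tgif1, a repressor of TGF-beta targets, rose by 3.28 ± 0.41, and Lif, a cytokine of the IL-6 family, by 3.10 ± 0.54, from 104, 198.4 and 102.2 to 761.4, 1716.3 and 1483.9. Ccn1, a YAP and SRF target, read 81.8, 23.3 and 56.7 against 85.9, 139.8 and 67.6 and did not pass (0.72 ± 0.36).

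**Figure D4:**
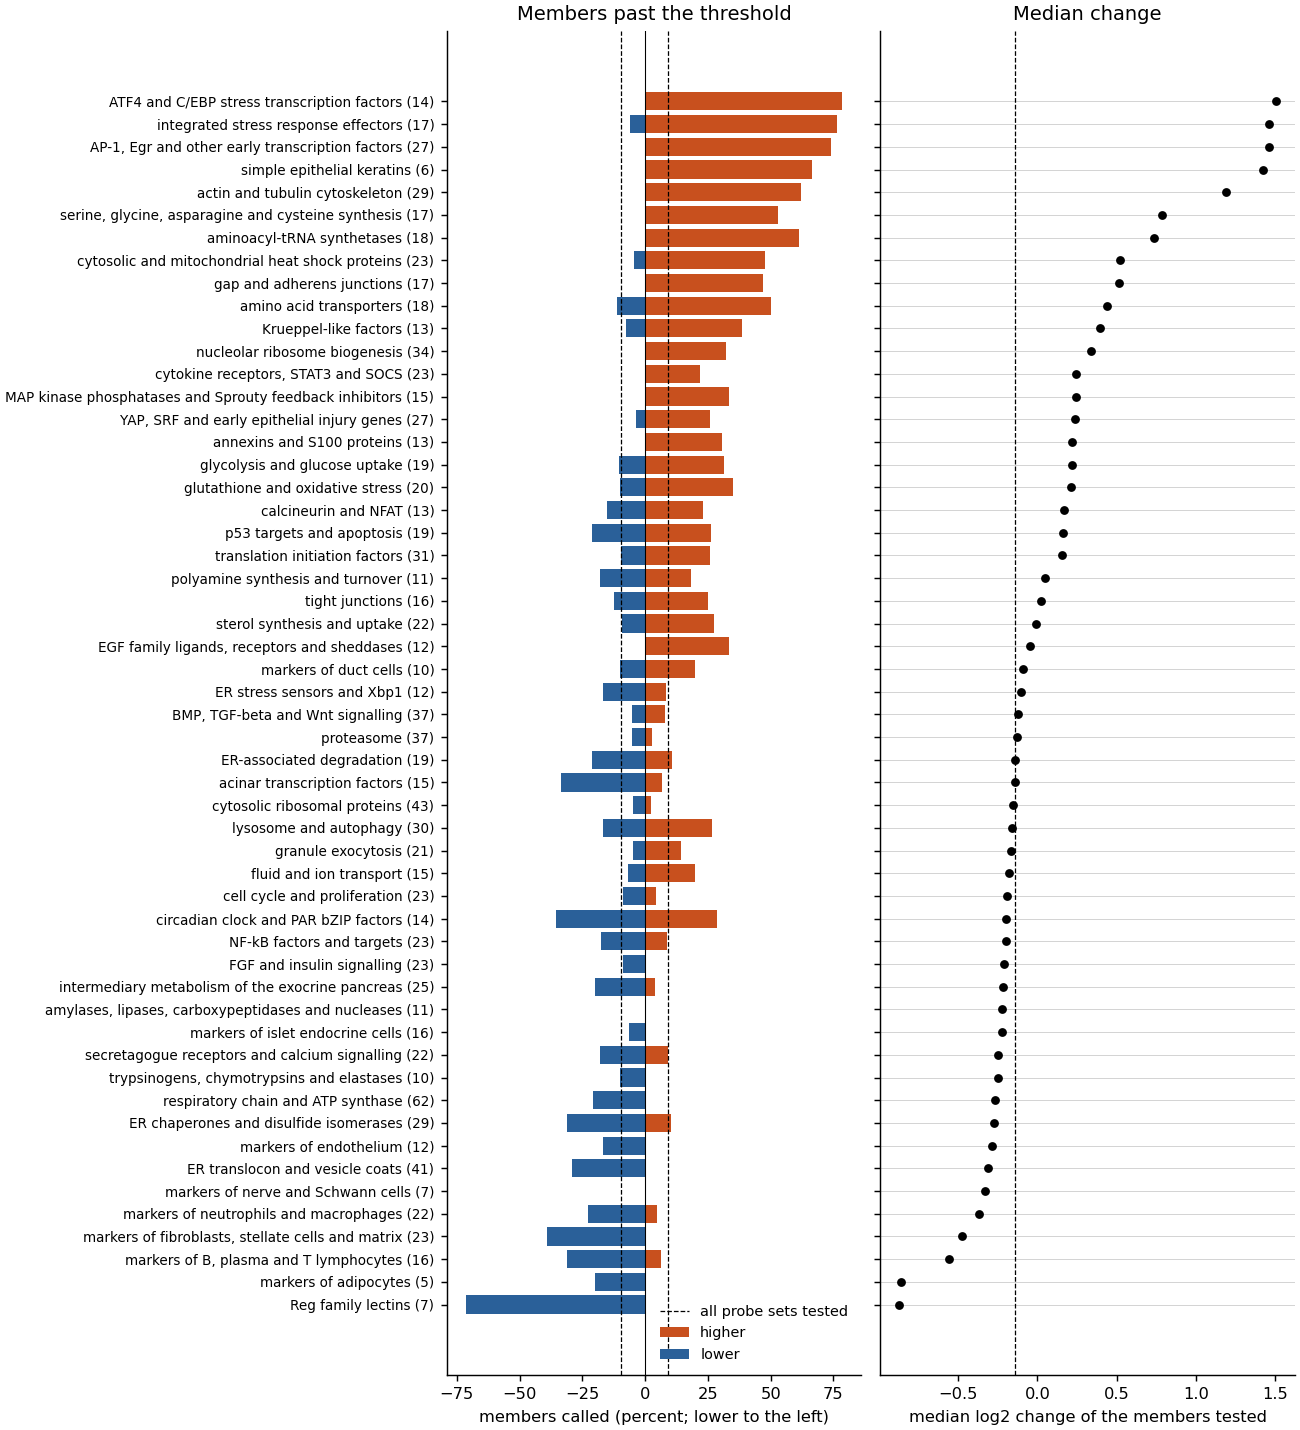
Left, the percent of tested members that rose, for each gene list but that of red cells (1 member tested), (orange, to the right) or fell (blue, to the left), with the number tested in brackets; dashed lines mark the shares over all probe sets tested, 9.19% higher and 9.74% lower. Right, the median log2 change of the tested members, with the dashed line at -0.14; stress factors, keratins and cytoskeleton are at the top and the Reg lectins at -0.87 at the bottom of the lists shown.

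Among 20 genes of glutathione and oxidative stress, 7 rose and 2 fell. After Gclc came Srxn1, which repairs peroxiredoxins (2.47 ± 0.27, or 1.68 in the mean of its probe sets), Hmox1, heme oxygenase (1.49 ± 0.22), and Nfe2l2, the gene of NRF2 (1.43 ± 0.29). Mt2, a metallothionein, rose from 8353.1, 5686 and 3579.6 to 13376.2, 13632.1 and 15074 (1.34 ± 0.30). Catalase, Cat, fell by 1.20 ± 0.25 on the log2 scale. Of 23 cytosolic and mitochondrial heat shock genes, 11 rose and 1 fell (median 0.52). Hspa4l rose by 2.41 ± 0.27, and Hspa8 by 1.62 ± 0.22, from 1499, 1173.2 and 2519.2 to 4294.9, 5264.9 and 5866.7. Hspa1b (3.08 ± 0.47, or 2.40 with an offset of 64) and Hspa1a (1.99 ± 0.52) are near-identical copies whose signals cannot be parted with certainty, and the call of Hspa1a was lost without saline replicate 3 or caerulein replicate 3.

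Of 11 polyamine genes 2 rose and 2 fell. Sat1, which acetylates polyamines for export, rose 6.93-fold (2.79 ± 0.19), from 202.1, 280.5 and 341.7 to 1648.2, 2021.2 and 2308.5. Odc1, the synthetic enzyme, rose by 0.90 ± 0.21, and Azin1, which protects Odc1 from degradation, fell 3.23-fold (-1.69 ± 0.16), from 799.5, 887.7 and 992.8 to 284.7, 308.8 and 205.5. In glycolysis and glucose uptake 6 of 19 rose and 2 fell. The glucose transporter Slc2a1 rose by 2.14 ± 0.34, Pfkfb3, which makes the activator of phosphofructokinase, by 1.97 ± 0.29 (1.14 in the mean of its probe sets and 1.33 with an offset of 64), and Ldha by 1.24 ± 0.16, while Pdk1 fell by 1.07 ± 0.27 on the log2 scale. Of 25 genes of other intermediary metabolism, 1 rose and 5 fell. Gys1, glycogen synthase, rose by 1.86 ± 0.22. Upp2, a uridine phosphorylase, fell from 356.1, 427.9 and 316.1 to 29.5, 19.2 and 17.4 (-3.24 ± 0.28, adjusted p = 3.35e-06). With offsets of 1 and 64 the change of Upp2 was -4.02 and -2.32.

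Of 31 initiation factors, 8 rose and 3 fell. Eif2b1, a subunit of the exchange factor that the integrated stress response inhibits, fell 2.75-fold (-1.46 ± 0.28), from 319.8, 435.7 and 505.5 to 150.7, 132.9 and 132.2. Eif5 (0.74 ± 0.11) and Eif6 (0.69 ± 0.13) rose. Of 34 nucleolar genes of ribosome biogenesis, 11 rose and none fell (median 0.34), led by Nop58 (1.62 ± 0.23), with Wdr43 at 0.82 ± 0.13 and Ddx21 at 0.83 ± 0.20. Npm1 did not pass (0.25, 95% interval -0.04 to 0.55). Of 43 ribosomal proteins 1 rose and 2 fell, and all 3 calls were lost under some alternative. Of 37 proteasome genes, 1 rose, Psmd8 (0.89 ± 0.13), and 2 fell. Respiratory chain and ATP synthase genes fell where they moved, with 13 of 62 lower and none higher (median -0.27), for example Ndufb7 (-0.95 ± 0.16), from 1296.1, 1201.3 and 1170.5 to 498.5, 737.2 and 661.4. These calls were 21.0% of the list, near the 18.9% of all probe sets tested, whose median change was -0.14. With centred arrays 10 fell and 1 rose.

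In the lysosome and autophagy list 8 of 30 rose and 5 fell. Sqstm1, the autophagy receptor p62, rose by 1.04 ± 0.10 from 1868.7, 1737.6 and 1955 to 4070.2, 3892.4 and 3504.2. Vmp1, a membrane protein of early autophagosomes, rose by 1.22 ± 0.19 (0.51 in the mean of its probe sets), and the cathepsins Ctsl (0.99 ± 0.15) and Ctsb (0.80 ± 0.12), of which cathepsin B can activate trypsinogen, rose less. Atg12 (-1.20 ± 0.29) fell, though not in the fit of the 6 wild type arrays alone (adjusted p = 0.0514). Of 22 sterol genes 6 rose and 2 fell, with Msmo1 at 1.66 ± 0.20, Sqle at 1.12 ± 0.23 and Hmgcs1 at 0.81 ± 0.19.

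Of 14 clock genes, 4 rose and 5 fell. Nfil3 and the PAR factors Dbp and Tef bind the same D-box and act in opposite ways. Dbp read 243.9, 217.9 and 179 after saline and 91.6, 92.2 and 72.6 after caerulein (-1.15 ± 0.23, or -1.75 in the mean of its probe sets). Tef read 681.3, 568.8 and 559.1 against 326.6, 251.1 and 233.7 (-1.11 ± 0.18). Nr1d2 fell by 1.06 ± 0.25 on the log2 scale and Nr1d1 by 1.06 ± 0.30, the latter lost without saline replicate 2 or caerulein replicate 2 or 3. The core genes Arntl (0.37 ± 0.23) and Per1 (0.32 ± 0.49) did not pass. The clock hour of each dissection is not given in the labels, so its part was not tested. Among genes with a promoter sequence, the D-box TTANGTAA lay in at least 1 promoter of 1 of 332 raised at least 2-fold. It lay likewise in 3 of 192 such genes lowered at least 2-fold (1.56%) and in 1.85% of those tested. Counted by promoter instead of by gene, it lay in 2.32% of all promoters.

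Of 19 p53 targets and apoptosis genes, 5 rose and 4 fell. The cell cycle inhibitor Cdkn1a rose 7.47-fold (2.90 ± 0.31), from 229.8, 406.5 and 243.2 to 2350.3, 2197.3 and 2180.6. Mcl1, a survival factor, rose by 1.37 ± 0.19, but only 1 of its 5 other probe sets passed the same way and the mean was 0.72, and Btg2 by 2.19 ± 0.36. The sestrins parted: Sesn2 rose 10.8-fold while Sesn1 fell 3.34-fold, from 1363.7, 1581.5 and 621.4 to 366.5, 320 and 273 (-1.74 ± 0.29, adjusted p = 0.000833). Of 23 cell cycle genes 1 rose and 2 fell. The rise, of Ccnd2 (0.50 ± 0.15), was lost under 6 alternatives, quantile normalization and the 6 wild type arrays alone among them. Both falls were of cell cycle inhibitors, Cdkn1b (-1.05 ± 0.24) and Cdkn2c (-0.71 ± 0.13), and Ccnd1 did not pass (-0.34, 95% interval -0.62 to -0.05).

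Cytokine signalling showed 5 rises and no fall among 23 genes, 21.7% called against 18.9% of all probe sets tested. Osmr, the oncostatin M receptor, rose 5.08-fold (2.34 ± 0.22, or 1.58 in the mean of its probe sets), from 70.2, 61.7 and 116.8 to 547.7, 369.8 and 557.1. Socs2 rose by 2.55 ± 0.22 and Stat3 by 0.87 ± 0.12. Socs3, the feedback inhibitor of STAT3, read 538.9, 127.9 and 127.1 against 662.7, 357.5 and 963, and saline replicate 1 alone made the groups overlap; it did not pass (1.47 ± 0.49, adjusted p = 0.0518). In the NF-kB list 2 of 23 rose and 4 fell. Rela, the p65 subunit, rose 3.33-fold (1.74 ± 0.13), from 507.8, 474.7 and 543.9 to 1877, 1453.1 and 1923.2, while Nfkbia, the inhibitor that NF-kB itself induces, fell from 1859.5, 1785.8 and 1858.5 to 1255.9, 1154.5 and 926.7 (-0.72 ± 0.12). The chemokine Ccl2 read 158.4, 134.9 and 154.1 against 101.8, 81.7 and 86.3 (-0.63 ± 0.19), a call lost under several alternatives, centred arrays among them.

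Of 37 BMP, TGF-beta and Wnt genes, 3 rose and 2 fell. The secreted BMP and Wnt antagonist Sostdc1 had the largest fall of all named genes, from 390, 297.8 and 419 to 12.7, 5.5 and 2.5 (-3.93 ± 0.25, adjusted p = 3.87e-07). Its caerulein values lie under the offset, and the change was -5.75 with an offset of 1 and -2.60 with an offset of 64. The mean of its probe sets was -3.21. The Wnt co-receptor Lrp6 fell by 1.22 ± 0.18 on the log2 scale, and Inhbb, an activin subunit, rose by 1.19 ± 0.19. Of 23 FGF and insulin signalling genes none rose and 2 fell, and both falls, of Igfbp4 and Pik3r1, were lost under some alternative. Klb, the co-receptor of Fgf21, did not pass (-0.40, 95% interval -0.87 to 0.08). In fluid and ion transport Ano1, the calcium-activated chloride channel, rose 4.65-fold (2.22 ± 0.19), from 55.6, 38.3 and 57.3 to 244, 338.1 and 327.5, and the other 3 calls among 15 were under 0.5 in size.

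Beyond genes already given, the 15 largest falls held 4 immunoglobulin-related genes, Iglv1, Jchain, Ighm and Igkv8-30, and the genes Mtss1, Sephs2, Tm2d3, Pcmtd2 and Cyp4f15. Sephs2, which makes the selenium donor for selenoproteins, read 960, 805.5 and 865.1 after saline and 137.1, 186.4 and 142.5 after caerulein (-2.37 ± 0.25). Mtss1, a membrane-bending actin regulator, fell by 2.53 ± 0.31 on the log2 scale, with 1 of its 2 other probe sets passing the same way and a mean of -1.49. With an offset of 64 Mtss1 changed by -1.82. The fall of Pcmtd2 (-2.23 ± 0.24) was not matched by its other probe set, and the mean was -1.34. With an offset of 64 Pcmtd2 changed by -1.64. Jchain, which joins polymeric immunoglobulins in plasma cells, read 913.7, 247.3 and 873.5 against 91, 52.2 and 110.5 (-2.59 ± 0.46), with saline replicate 2 the low saline array and -3.19 without it. Iglv1 read 551.8, 67.2 and 201.8 against 12.9, 5.1 and 22.4 (-2.82 ± 0.58), with -2.13 without saline replicate 1 and -3.50 without saline replicate 2. With offsets of 1 and 64 its change was -3.97 and -1.85, and in the mean of all its probe sets the call was lost (-1.05, adjusted p = 0.0712). Ighm (-2.23 ± 0.53) was -1.58 and Igkv8-30 (-2.04 ± 0.50) was -1.29 without caerulein replicate 2, and of 5 other Ighm probe sets only 1 passed the same way. In the mean of its probe sets Ighm lost its call (-0.66, adjusted p = 0.142), and with offsets of 1 and 64 Igkv8-30 changed by -2.71 and -1.44. Immunoglobulin probes can bind several genes of the family, so these names stand for the group.

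Markers of cells other than acinar cells were mostly lower or did not pass. Of 23 fibroblast, stellate cell and matrix markers 9 fell and none rose (median -0.48), but only 3 fell when the arrays were centred. The summed signal of that list was 6537 to 10652 after saline and 4918 to 6441 after caerulein. Col1a1 read 186.5, 80.6 and 265.3 against 155, 21 and 31.6 and did not pass (-1.35 ± 0.48). Of 22 neutrophil and macrophage markers 1 rose and 5 fell (median -0.37), with sums of 3039.5 to 4664 after saline and 2687 to 3110.4 after caerulein. The granulocyte marker S100a8 read 64.2, 48.9 and 126.9 against 10.6, 23 and 39.5 (-1.17 ± 0.49, did not pass), and the macrophage marker Cd68 did not pass (-0.15, 95% interval -0.68 to 0.38). The only riser was Lcn2 (1.31 ± 0.36), which injured epithelium also makes, and its call was lost in the fit of the 6 wild type arrays alone and without 1 of 3 arrays.

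Of 16 lymphocyte and plasma cell markers 5 fell and 1 rose (median -0.56), with sums of 3869.6 to 6198 and 3075 to 3379. The riser was Sdc1, a plasma cell and epithelial proteoglycan (2.11 ± 0.18), also on the injury list. Endothelial markers showed 2 falls among 12 (16.7%, against 18.9% called over all probe sets). Both were lost when the arrays were centred, and Pecam1 did not pass (-0.36 ± 0.17). Of 10 duct markers, Krt19 and Epcam (1.84 ± 0.18, from 105.9, 96.2 and 166.1 to 460.2, 533.6 and 437.5) rose and Muc1 fell (-0.49 ± 0.14, a call lost under 6 alternatives, centred arrays among them), while the other 7 lay between -0.69 and 0.47. Of 16 islet markers 1 passed, Pyy (-0.55 ± 0.16), whose call was also lost under 6 alternatives, centred arrays among them. Ins2 did not pass (0.01, 95% interval -0.38 to 0.39). None of 7 nerve markers passed, and of 5 adipocyte markers only Lpl fell (-0.86 ± 0.16). Adipoq read 329.9, 68 and 181.7 against 98.6, 2.3 and 132.2, so the second array of each group was low. No marker was at 0, since all values were above 0, and no detection call came with them. The part of these shifts in the other results was not tested.

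Caerulein replicate 1 had the weaker rises. Among the 1444 probe sets that rose, caerulein replicate 1 was the lowest of the 3 caerulein arrays in 695 (48.1%), against 33.1% of all probe sets tested. It was the lowest in 15 of 20 risen early transcription factors, in 9 of 11 risen ATF4 and C/EBP factors, in 10 of 13 risen effectors of the stress response and in 11 of 18 risen cytoskeleton genes. Among the 11 risen aminoacyl-tRNA synthetases it was the lowest in 4. Among the 1531 probe sets that fell it was the highest of the 3, the weakest fall, in 637 (41.6%), against 39.1% of all tested. Without this array 2757 probe sets were called, 1308 higher and 1449 lower.

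Whether a response was particular to wild type was tested as the difference between the response in Mist1KO and that in wild type. Such an interaction passed for 518 probe sets, 3.3% of those tested. The count rests on few arrays: it was 343 without wild type caerulein replicate 2, 310 and 273 without Mist1KO saline replicates 1 and 3, and 271 and 300 without Mist1KO caerulein replicates 1 and 2. The Mist1KO caerulein arrays also differed in their controls. Their spike-in control probe sets had a geometric mean of 297 to 371, against 549 to 1064 on all other arrays. Their Actb ratio of 3' to 5' probe sets was 1.08 to 1.20, against 1.70 to 1.93 on the Mist1KO saline arrays. The part of these differences in the interactions was not tested. Of the 1444 that rose in wild type, 144 had a lower response in Mist1KO and 41 a higher one, and of the 1531 that fell, 64 had a higher and 25 a lower response. Of the 52 risen genes of the stress response lists, 16 had a lower response in Mist1KO and none a higher one. The wild type arrays that made these calls also enter the interaction. That choice favours a smaller change in Mist1KO, so how these counts split is a description only. Fgf21 changed by 4.92 ± 0.38 in wild type and by -0.04 ± 0.38 in Mist1KO, where all 6 arrays lay between 7.8 and 14.7 (interaction -4.96 ± 0.53, adjusted p = 0.000466). Herpud1 rose in wild type and fell in Mist1KO (-1.72 ± 0.21), an interaction of -3.13 ± 0.30. Nr5a2 fell in wild type and changed by 0.02 ± 0.18 in Mist1KO, an interaction of 1.42 ± 0.25. For Rcan1, Gclc, Egr1, Atf3, Tnfrsf12a and Cckar the interaction did not pass, which does not show that the genotypes respond alike.

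**Figure D5:**
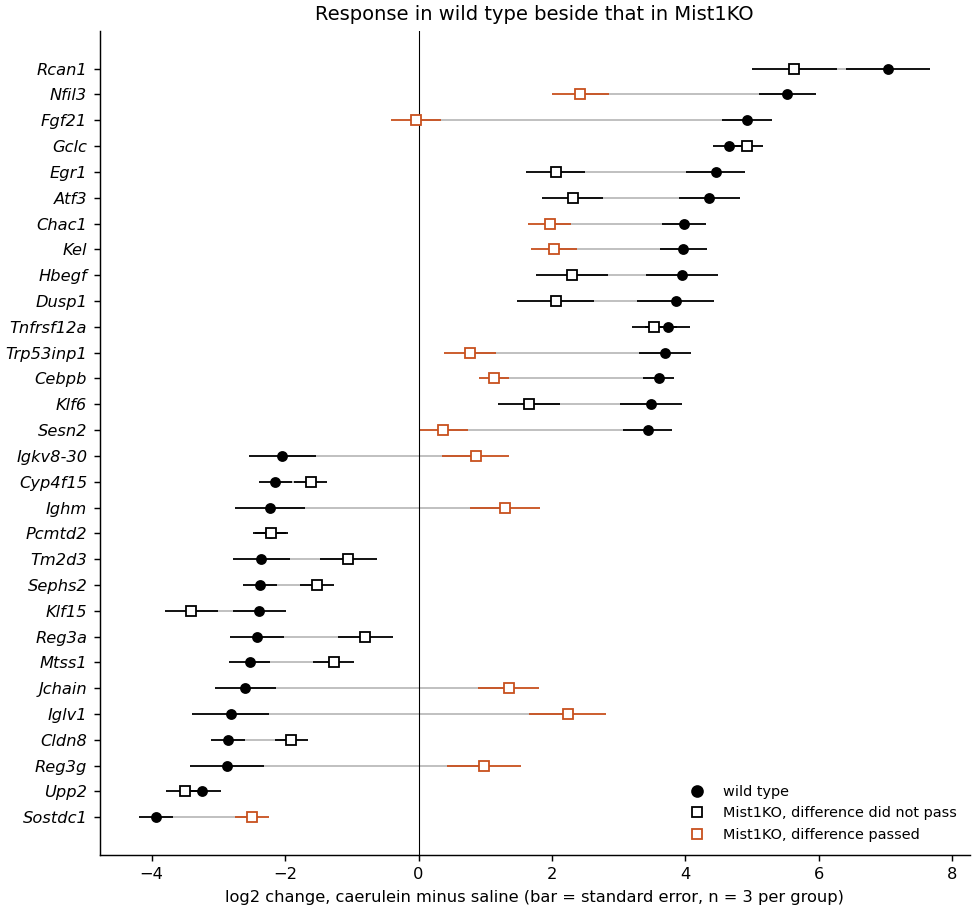
Log2 change after caerulein in wild type (filled circles) and in Mist1KO (open squares) for the 30 genes with the largest rises and falls in wild type, with standard errors (n = 3 per group); orange squares mark genes whose interaction passed. Fgf21 sits at 4.92 in wild type and at -0.04 in Mist1KO, and Gclc at 4.66 and 4.92. The genes were chosen on their wild type change, so the distance between the symbols is not an unbiased estimate.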

How the data were processed

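Labelled RNA of each pancreas was hybridised to 1 Affymetrix array, per the labels' protocols. The deposited values are linear signal intensity per probe set; their trimmed means show that the authors scaled each array to a common level, while summarisation software, scaling target and detection calls were not given in the sources used here. Of 22516 probe sets 64 were controls. Gene symbols came from the platform annotation (20240 probe sets with 1 symbol, 682 with several, 1530 with none). Values were taken as log2(intensity + 18.7), the offset being the 20th percentile, and probe sets under the 30th percentile of the mean (6736) were left out. limma 3.58.1 in R 4.3.3 fitted the means of 4 groups on all 12 arrays (8 residual and 5.75 prior degrees of freedom, intensity trend), so the spread is shared with the Mist1KO arrays. Of a gene's probe sets, the brightest stands for it. Tables and plots used Python 3.11.15, pandas 2.3.3 and matplotlib 3.10.9. No arrays were identical, and the fit was tested on simulated data. The genes named are the 15 largest rises and falls with groups that did not overlap, anchors and up to 6 called members of each list, whole small lists, and the 5 largest interactions each way. The members and lists were chosen with earlier results of these data known, so no list is independent evidence. Alternatives covered the offset, the filter, centring, quantile normalization, the trend, the arrays used, a replicate block, leaving out each array and, added after seeing the data, the mean of a gene's probe sets.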

Additional observations from a re-analysis of the deposited data

Results flagged for a closer look

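For 43 named genes the caerulein response in Mist1KO differed from that in wild type by limma's interaction test at an adjusted p under 0.05. Each gene below is followed by its log2 change after caerulein in Mist1KO and, in brackets, by that change minus the wild type one, with n = 3 per group. Counts of interactions depend on single arrays, as given with the processing. The Mist1KO caerulein arrays also differed from the others in their control probe sets, and the part of this in the interactions was not tested. Most of these genes were named for their wild type change, which also enters the difference. The size and the direction of the difference are therefore descriptions.

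Among the largest rises of wild type the values were Nfil3 2.43 (-3.10), Fgf21 -0.04 (-4.96), Chac1 1.96 (-2.01), Kel 2.03 (-1.94), Trp53inp1 0.77 (-2.92), Cebpb 1.13 (-2.47) and Sesn2 0.37 (-3.07). The 6 Mist1KO arrays of Fgf21 all lay between 7.8 and 14.7 signal units, in both injections. Among the largest falls they were Sostdc1 -2.49 (1.44), Reg3g 0.98 (3.85), Iglv1 2.24 (5.05), Jchain 1.35 (3.94), Ighm 1.30 (3.52) and Igkv8-30 0.85 (2.89). In this second group the response of Mist1KO was the higher one in each gene, a direction that choosing the genes for their wild type falls favours.

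Among early factors and genes of the integrated stress response, amino acid supply and tRNA charging they were Ier2 0.60 (-2.67), Ppp1r15a -0.36 (-2.28), Cth 0.79 (-1.37), Slc3a2 0.35 (-1.11), Slc38a2 0.12 (-1.15), Slc7a5 0.24 (-0.91) and Rars 0.65 (-0.88). All of these rose in wild type. Among ER chaperones and degradation genes they were Hspa5 0.39 (-1.24), Herpud1 -1.72 (-3.13), Ube2g2 0.14 (-1.07) and Sel1l -2.0 (-1.19), where Herpud1 had opposite directions in the 2 genotypes. Among keratin, annexin, actin and injury genes they were Krt19 3.50 (1.62), Anxa2 2.06 (1.17), Actg1 1.31 (-1.45) and Sdc1 3.32 (1.21).

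The remaining genes were Nr5a2 0.02 (1.42), Sat1 1.66 (-1.13), Azin1 -0.62 (1.07), Hspa9 0.43 (-1.28), Hmgcs1 2.56 (1.75), Gabarapl1 -0.05 (-1.26), Sqstm1 0.44 (-0.60), Sesn1 -3.46 (-1.73), Ccnd2 -0.89 (-1.39), Nfkbia 0.34 (1.06), Klb -1.80 (-1.40), Gys1 0.58 (-1.28), Cpt1a -1.74 (-1.21), Aqp8 -0.56 (-1.0) and Nat8 -3.47 (-3.46). Nat8, an acetyltransferase, was named for the size of its interaction.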

How the results depend on the processing

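The 2975 calls in wild type ranged from 1988, with only the 6 wild type arrays, to 3063, with an offset of 64. The 1531 lower calls became 836 with arrays centred on their medians and 851 with only the 6 wild type arrays. Leaving out each array in turn gave 2151 to 2992 calls, 1119 to 1451 higher and 1032 to 1541 lower. The 518 interactions (238 higher, 280 lower) became 328 (157 and 171) with no intensity trend, and 271 to 553 (119 to 260 and 141 to 293) when each array was left out. Of 259 named genes that passed in wild type, 185 kept the call under every alternative run, 74 lost it under at least 1, and 0 changed direction. The replicate number as a block gave 2772 wild type calls (1371 higher, 1401 lower) and 392 interactions (175 and 217). Deviations from the group means correlated at -0.03, 0.00 and 0.05 between wild type samples of the same number. Between samples of different numbers they correlated at -0.06 to 0.05. With 3 samples per group this check cannot decide whether the numbers share more than a label. The cause of these moves was not tested. Dim probe sets limit the folds, since the offset sets their size, and no detection calls came with the values.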

Other observations

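Of 1773 genes that passed, 358 were on a list and 1415 on none.

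Among 3227 genes with several probe sets tested, 447 had at least 2 that passed. In 429 of these all calls went the same way, and in 18 they went both ways. The genes named here were chosen from those 18 after their values were seen. For Ddr1, a collagen receptor kinase, 3 probe sets rose, by 1.13 ± 0.26, 1.90 ± 0.29 and 1.99 ± 0.26, while another fell (-0.61 ± 0.16), and its brightest did not pass. The BMP receptor Acvr1 had changes of 0.69 ± 0.20 and 1.66 ± 0.25 on a pair of probe sets and of -0.79 ± 0.19 on another. The probe set of the kinase Csnk1d that rose read 46.4, 137.8 and 48 after saline and 282.2, 250.1 and 371.8 after caerulein (1.85 ± 0.29), and the one that fell read 778.9, 925.5 and 723.4 against 668.1, 531 and 520.9 (-0.49 ± 0.13). The chromatin remodeller Chd1 had 1.44 ± 0.28 and -0.66 ± 0.22. The transcript that each probe set binds was not analysed here.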
